A study of Mus musculus with 6 samples.

Results

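The genes described here encode the proteasome and the factors that activate, inhibit or assemble it. Membership went by symbol alone, under a rule chosen with earlier results of these data known. The rule took every mouse gene named Psma, Psmb, Psmc, Psmd, Psme, Psmf or Psmg with a number. It left out the induced catalytic subunits Psmb8, Psmb9 and Psmb10. That rule found 44 of the 22180 genes that a probe set of a single gene measures, and 43 of them were among the 15526 genes bright enough to be tested. Psma4, a subunit of the alpha ring, was read only by 2 probe sets shared with another gene and has no value here. Each gene has 1 level per array, on the log2 scale of the RMA normalization, and differences are Chd7f/f minus control. Because a probe set's brightness depends on its probes, levels were compared between arrays and not between genes.

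The 6 arrays hold total RNA from 3 Chd7f/f, Mx1-Cre, Cbfb+/56M samples and 3 Mx1-Cre, Cbfb+/56M samples, called Chd7f/f and control leukemias. Both genotypes carry Mx1-Cre and Cbfb+/56M. The Cbfb allele expresses, after recombination, the Cbfb-MYH11 fusion of inv(16) acute myeloid leukemia, and Mx1-Cre is a recombinase under an interferon-inducible promoter that is active in many cell types of the mouse besides blood cells. In Chd7f/f mice both alleles of the chromatin remodeller gene Chd7 are floxed as well. Mice of both genotypes were given the mutagen ENU and pIpC, which induces Mx1-Cre, and leukemic cells bearing c-Kit were sorted from the spleen at the end stage of disease. The ages of the mice are not given in the labels, and ENU gives each leukemia mutations of its own. The study calls the 3 samples of a genotype independent but does not tie each one to a mouse, and p-values here rest on the spread among these 6 arrays.

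The proteasome is the main protease of the cytosol and nucleus for proteins tagged with ubiquitin. Its core particle is a barrel of stacked alpha and beta rings with the cutting sites inside. A regulatory particle caps the barrel; its base holds the ATPases that unfold and thread substrates, and its lid removes the ubiquitin chain. Dedicated chaperones assemble both particles, and alternative caps open the core without ubiquitin. Subunits are needed in fixed proportions, and in mammals the transcription factor NFE2L1 raises their genes together when proteasome activity is short. Blood cancers with a high load of protein synthesis, above all multiple myeloma, are treated with inhibitors of the catalytic subunit that Psmb5 encodes.

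Chd7 itself was at 5.48, 6.50 and 5.91 in Chd7f/f leukemias, against 6.17, 7.54 and 5.32 in control leukemias; the groups overlapped, and 1 probe set for the whole gene does not check the deletion. Kit, behind the sort, lay between 11.68 and 12.48 on all arrays. Mean levels of 5 measured B cell markers and 5 T cell markers were at most 4.89 and 4.41, with Ms4a1, Ebf1, Cd3g and Cd4 below the level of 4.13 required for testing. The B cell marker Cd79a was higher in control replicate 2, at 7.18, with 4.97 to 5.26 on the other arrays. Erythroid markers, 4 measured of 9, had mean levels of 7.32 to 9.39 in Chd7f/f and 7.99 to 10.31 in control leukemias. Macrophage markers, 7 of 7, ran from 6.34 to 7.42 in Chd7f/f and from 5.92 to 6.92 in control leukemias. All 7 had a higher mean in Chd7f/f leukemias, with a median difference of 0.54. For 1 of them, Mpeg1, groups did not overlap and the difference was 1.12 (limma, unadjusted p = 0.0258, adjusted p = 0.9998). Neutrophil markers, 7 of 7 with S100a8 and Camp below the testing level, ran from 4.37 to 5.41 in Chd7f/f and from 4.20 to 4.64 in control leukemias. All 5 tested had a higher mean in Chd7f/f leukemias, with a median difference of 0.30, and groups did not overlap for 1, Ly6g. Megakaryocyte markers, 3 measured of 5, ran from 6.49 to 7.11 in Chd7f/f and from 7.04 to 7.93 in control leukemias. Of these, Pf4 lay below the testing level, and Gp9 was at 10.81 in control replicate 1 and 6.41 to 7.71 on the other arrays. Control replicate 2 alone had a high Xist level and a low level of the Y-linked Eif2s3y. In RNA from a cell population, fewer cells of a type and less RNA per cell cannot be told apart.

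Most proteasome genes were slightly lower in Chd7f/f than in control leukemias, and none of the differences passed the test. Only for Psmb11, Psmc6 and Psmd5 was the difference larger than the SD within each genotype. Of the 43 tested genes 37 were lower and 6 higher, with a median difference of -0.11 on the log2 scale. Over all tested genes 56.3% were lower and the median difference was -0.027. With limma's array weights 26 of the 43 genes were lower and their median was -0.030; with arrays centred on their medians 35 were lower and it was -0.059, with 0.025 over all tested genes. No proteasome gene passed an adjusted p of 0.05 (limma, Benjamini-Hochberg over all tested genes, adjusted p = 0.9998 for each), nor did any other gene (0%). At an unadjusted limma p under 0.05 the count was 0 of 43, where 1.84% of tested genes passed (0.696% higher and 1.15% lower); the lowest value, 0.0894, belonged to Psmc6. The 95% intervals of 40 of the 43 differences lay within 1 log2 unit either side of 0, so a 2-fold change lay outside them; Psmb5, Psmc5 and Psmg1 were the exceptions. With 3 leukemias a side, the smallest two-sided p an exact permutation test allows is 0.1.

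One array set the pattern apart. In Chd7f/f replicate 1, 38 of the 43 genes were below their own mean over the 6 arrays, and 34 were lowest there of all arrays, a share of 79.1% against 27.7% of all tested genes. The mean deviation of the 43 genes from their own means was -0.40, 0.13 and 0.098 in Chd7f/f leukemias and -0.010, 0.056 and 0.13 in controls. Chd7f/f replicates 2 and 3, with 32 and 37 genes above their own mean, lay within the range of the controls, with 26, 28 and 37 genes above. The same measure over all tested genes stayed between -0.068, also on Chd7f/f replicate 1, and 0.027.

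**Figure D1:**
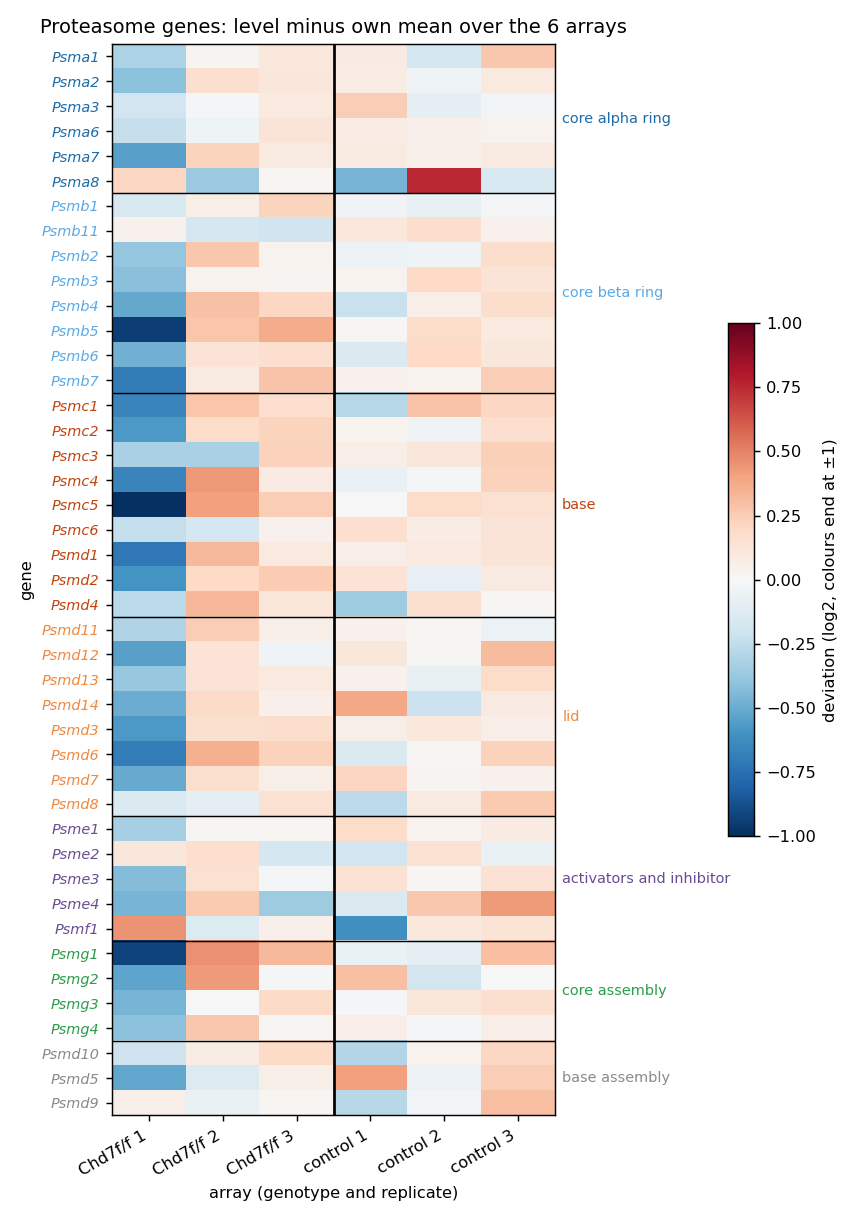
Deviation of each tested proteasome gene (rows, grouped by role) from its own mean over the 6 arrays (columns, Chd7f/f left of the line and control right of it), in log2 units; blue is below and red above the mean. The column of Chd7f/f replicate 1 is blue for 38 of 43 genes, and Psmf1, Psma8, Psme2, Psmd9 and Psmb11 are its exceptions.

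Within the alpha ring, whose subunits form the gate of the core, all 6 tested genes had a lower mean in Chd7f/f leukemias, with differences of -0.080 to -0.16. Psma7 had levels of 9.66, 10.43 and 10.30 in Chd7f/f leukemias, against 10.30, 10.27 and 10.30 in control leukemias. Its control values were nearly identical and Chd7f/f replicate 1 alone lay below them; the difference was -0.16 (SE 0.21, 95% interval -0.68 to 0.36). Psma1 stood at 8.95, 9.30 and 9.38 in Chd7f/f leukemias, against 9.36, 9.10 and 9.54 in control leukemias, with overlapping groups and a difference of -0.12 (SE 0.18). Psma2, Psma3 and Psma6 differed by -0.085, -0.080 and -0.10, each lowest on the same array. Psma8, the paralog of Psma7 used by male germ cells in the mouse, was dim, at 4.77, 4.20 and 4.59 in Chd7f/f leukemias, against 4.11, 5.32 and 4.41 in control leukemias; its highest value was in control replicate 2 and its lowest in control replicate 1. Psma5 could not be tested, since its brighter probe set read 3.80, 3.91 and 3.75 in Chd7f/f leukemias, against 3.78, 3.99 and 3.83 in control leukemias, below the level required, and its other probe set lay between 3.14 and 4.27.

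In the beta ring, which holds the cutting sites, 7 of 8 genes had a lower mean in Chd7f/f leukemias, with a median difference of -0.16. Psmb5, the chymotrypsin-like subunit, was at 7.12, 8.34 and 8.44 in Chd7f/f leukemias, against 8.08, 8.25 and 8.16 in control leukemias. Chd7f/f replicate 1 lay 1.13 log2 units, or 2.19-fold, below the mean of the other 5 arrays, while the remaining Chd7f/f values were above all controls, and the genotype difference was -0.20 (SE 0.35, 95% interval -1.06 to 0.66). Psmb7, the trypsin-like subunit, read 9.56, 10.35 and 10.54 in Chd7f/f leukemias, against 10.30, 10.29 and 10.50 in control leukemias, a difference of -0.22 (SE 0.27) with overlapping groups. Psmb6, the caspase-like subunit, ran from 8.90 to 9.59 and was also lowest in Chd7f/f replicate 1. Among the subunits without a cutting site, Psmb3 had values of 6.59, 7.05 and 7.04 in Chd7f/f leukemias, against 7.05, 7.21 and 7.14 in control leukemias. The groups did not overlap, though by a small margin, and the difference was -0.24 (SE 0.16). Psmb1, Psmb2 and Psmb4 differed by 0.080, -0.055 and -0.0090. Psmb11, the catalytic subunit of thymic cortical epithelium, was dim at 4.22, 4.01 and 3.98 in Chd7f/f leukemias, against 4.28, 4.35 and 4.22 in control leukemias. Its groups did not overlap either, again by a small margin, 4.218 in Chd7f/f replicate 1 against 4.220 in control replicate 3. They differed by -0.22 (SE 0.12), at levels near the one required for testing. Promoter bases of Psmb5 (chr14:54617996-54618102, - strand) and Psmb6 (chr11:70525288-70525356, + strand) are shown because they hold the core of the antioxidant response element, TGACNNNGC, to which NFE2L1 binds. They come from RefSeq (GRCm38.p6) and run from 5′ to 3′ on the gene's strand, with the motif in capitals.
Psmb5: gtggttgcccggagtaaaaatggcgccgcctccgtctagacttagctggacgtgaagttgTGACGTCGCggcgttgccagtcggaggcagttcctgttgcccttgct
Psmb6: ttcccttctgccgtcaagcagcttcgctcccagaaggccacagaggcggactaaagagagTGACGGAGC

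In the base of the regulatory particle 8 of 9 genes had a lower mean and 1 a higher mean in Chd7f/f leukemias, with a median difference of -0.14. Psmc5, one of the ATPases that unfold substrates, was at 7.14, 8.55 and 8.39 in Chd7f/f leukemias, against 8.14, 8.33 and 8.29 in control leukemias. Its gap in Chd7f/f replicate 1 was the widest of the 43 genes, 1.20 log2 units or 2.30-fold below the mean of the other 5 arrays, and the genotype difference was -0.23 (SE 0.37, 95% interval -1.13 to 0.68). Psmc3, another ATPase, behaved differently, at 8.38, 8.37 and 8.93 in Chd7f/f leukemias, against 8.76, 8.81 and 8.94 in control leukemias. Here replicates 1 and 2 of Chd7f/f were equally low and replicate 3 lay just below the highest control, for a difference of -0.28 (SE 0.18). The ATPase gene Psmc6 had 9.70, 9.77 and 9.98 in Chd7f/f leukemias, against 10.11, 10.01 and 10.07 in control leukemias. All Chd7f/f values lay below all controls, with a difference of -0.24 (SE 0.12, 95% interval -0.54 to 0.051). The remaining ATPase genes Psmc1, Psmc2 and Psmc4 and the scaffold genes Psmd1 and Psmd2 differed by -0.095 to -0.20, each lowest in Chd7f/f replicate 1. A second, dimmer probe set of Psmc2 was lowest on that array too, at 4.67, with 5.02 to 5.33 on the others. Psmd4, a ubiquitin receptor, was the gene of the base with a higher mean, by 0.12 (SE 0.21). Psmc5 (chr11:106256030-106256155, + strand) and Psmc2 (chr5:21785132-21785257, + strand) hold the core of the site that ETS factors bind, CCGGAA, before their starts. It is in capitals in these bases from the same source; in Psmc2 it lies on the opposite strand and reads TTCCGG.
Psmc5: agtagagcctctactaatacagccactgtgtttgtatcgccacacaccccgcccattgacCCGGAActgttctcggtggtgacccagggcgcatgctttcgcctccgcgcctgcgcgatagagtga
Psmc2: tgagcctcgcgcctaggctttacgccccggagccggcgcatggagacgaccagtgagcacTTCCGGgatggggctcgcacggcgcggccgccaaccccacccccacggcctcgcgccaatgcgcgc

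All 8 genes of the lid had a lower mean in Chd7f/f leukemias, from -0.00053 for Psmd11 to -0.29 for Psmd12. The scaffold gene Psmd12 read 8.98, 9.66 and 9.49 in Chd7f/f leukemias, against 9.64, 9.54 and 9.84 in control leukemias; the groups overlapped and the difference was -0.29 (SE 0.20, 95% interval -0.79 to 0.20). Psmd7, the partner of the lid's deubiquitinase, was at 9.71, 10.37 and 10.27 in Chd7f/f leukemias, against 10.43, 10.24 and 10.25 in control leukemias, a difference of -0.19 (SE 0.20). Psmd6, another scaffold subunit, had 7.71, 8.76 and 8.63 in Chd7f/f leukemias, against 8.26, 8.41 and 8.63 in control leukemias. It varied most within the lid, with Chd7f/f replicate 1 low and the other Chd7f/f arrays at or above every control, and the means differed by -0.069 (SE 0.30). Psmd14, which encodes the deubiquitinase itself, was 0.17 lower (SE 0.24), and Psmd3, Psmd8 and Psmd13 were 0.059 to 0.15 lower. Psmd6 (chr14:14120946-14121050, - strand) holds the same ETS core, in capitals.
Psmd6: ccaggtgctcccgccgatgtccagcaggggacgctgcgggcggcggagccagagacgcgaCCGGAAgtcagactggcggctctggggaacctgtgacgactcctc

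Among the genes of alternative caps and of the inhibitor 3 of 5 had a lower mean in Chd7f/f leukemias and 2 a higher one. Psme1, a subunit of the interferon-inducible PA28 cap, was at 10.34, 10.69 and 10.70 in Chd7f/f leukemias, against 10.86, 10.71 and 10.76 in control leukemias. Its groups did not overlap and differed by -0.20 (SE 0.14), whereas Psme2, its partner in the same cap, ran from 6.76 to 7.12 and differed by 0.069 (SE 0.15). Mice have a near copy of Psme2, Psme2b, and how far the Psme2 probes also read it was not tested. Psme3, the nuclear member of the family, was 0.20 lower (SE 0.17). Psme4, which encodes the cap PA200, had 8.70, 9.43 and 8.81 in Chd7f/f leukemias, against 9.02, 9.44 and 9.59 in control leukemias, with low values in Chd7f/f replicates 1 and 3 and a difference of -0.37 (SE 0.25, 95% interval -0.97 to 0.23). Psmf1, which encodes the proteasome inhibitor PI31, showed the reverse order, at 9.83, 9.24 and 9.43 in Chd7f/f leukemias, against 8.76, 9.48 and 9.52 in control leukemias. It was highest in Chd7f/f replicate 1 and lowest in control replicate 1, and the groups differed by 0.25 (SE 0.26, 95% interval -0.38 to 0.88).

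All 4 chaperones of the core had a lower mean in Chd7f/f leukemias. Psmg1, a partner in the PAC1-PAC2 pair that helps build the alpha ring, was at 7.21, 8.60 and 8.46 in Chd7f/f leukemias, against 8.07, 8.04 and 8.44 in control leukemias. Chd7f/f replicate 1 was 2.16-fold below the mean of the other 5 arrays, both other Chd7f/f leukemias were above all controls, and the difference was -0.093 (SE 0.38, 95% interval -1.02 to 0.83). Psmg3 had 6.46, 6.93 and 7.12 in Chd7f/f leukemias, against 6.92, 7.05 and 7.09 in control leukemias, a difference of -0.18 (SE 0.19). Psmg2, the partner of Psmg1, and Psmg4, the partner of Psmg3, differed by -0.081 and -0.083 and were lowest on the same array; a second, dim probe set of Psmg2 read 4.19 to 4.41 without that order. Of the chaperones of the base, Psmd5 was at 9.44, 9.83 and 10.02 in Chd7f/f leukemias, against 10.37, 9.90 and 10.21 in control leukemias. It had the largest genotype difference of the 43 genes, -0.40 (SE 0.20, 95% interval -0.89 to 0.091), with groups that overlapped between 9.90 and 10.02. Psmd10, also known as gankyrin, read 8.50, 8.78 and 8.89 in Chd7f/f leukemias, against 8.41, 8.75 and 8.91 in control leukemias, and Psmd9 ran from 6.83 to 7.40; neither mean differed by more than 0.035.

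**Figure D2:**
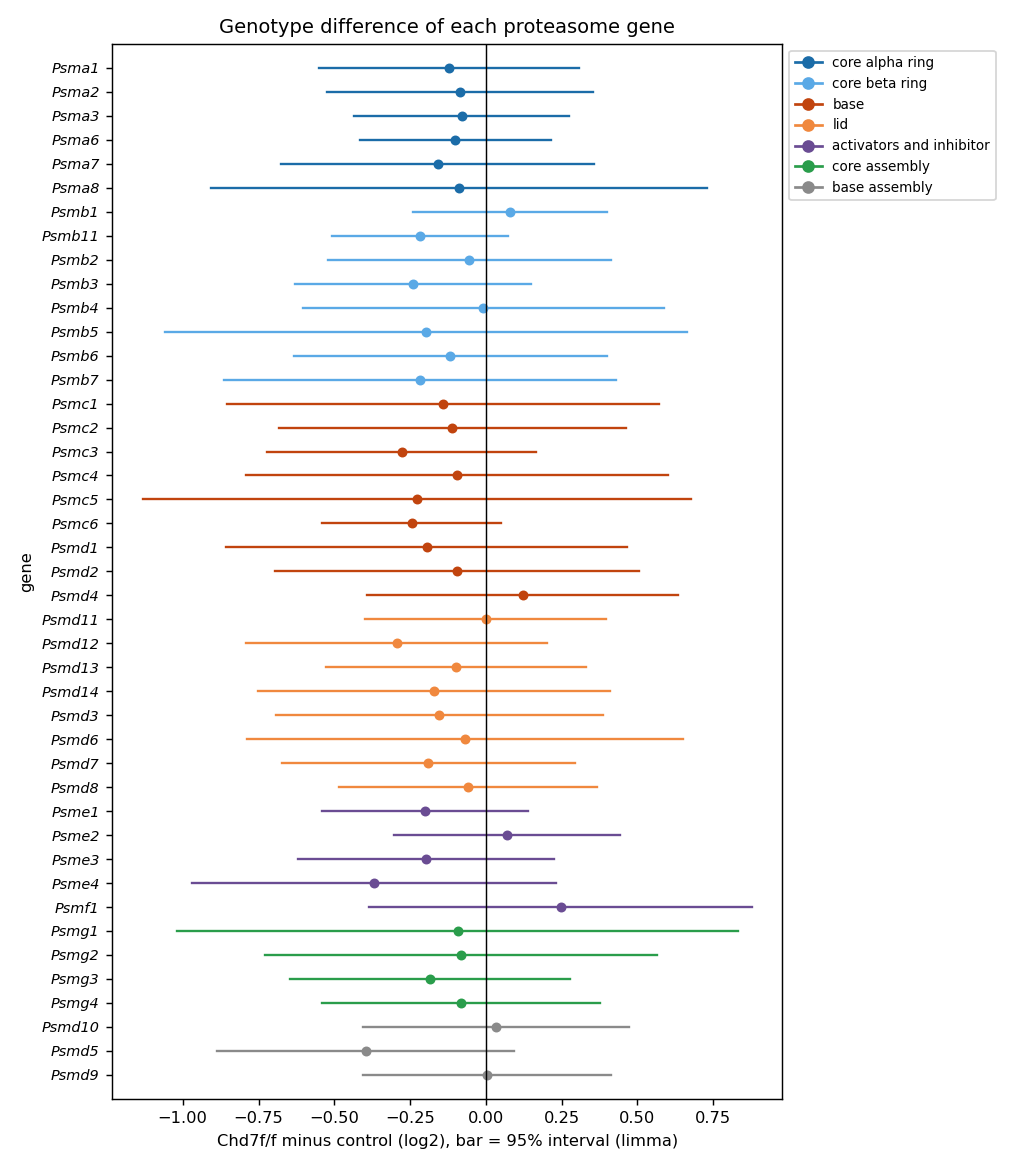
Genotype difference of each tested proteasome gene (Chd7f/f minus control, log2) with its 95% interval from limma, coloured by role. All 43 intervals include 0, and 37 of the points lie left of it.

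Across the 43 genes, 4 had groups that did not overlap, all lower in Chd7f/f leukemias: Psmb3, Psmb11, Psmc6 and Psme1. That is 9.3% of the proteasome genes, against 6.81% of all tested genes in either direction and 4.37% in this one. No member had groups apart in the other direction (2.45% of all tested genes). Role groups differed in how far Chd7f/f replicate 1 lay below their mean. Their mean deviations on this array were -0.58 for core assembly, -0.56 for the base, -0.46 for the lid, -0.44 for the beta ring, -0.25 for the alpha ring, -0.23 for base assembly and -0.13 for activators and inhibitor. On the other 5 arrays the role groups lay between -0.13 and 0.29. All 17 genes of base and lid were below their own mean on Chd7f/f replicate 1, as were 12 of 14 core genes and 4 of 4 core chaperones.

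**Figure D3:**
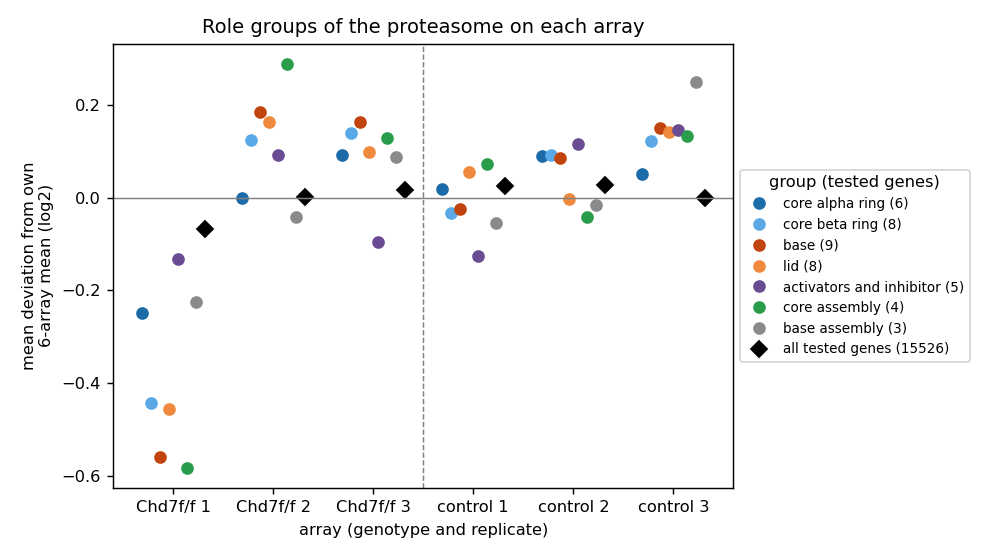
Mean deviation (log2) of each role group from its genes' own 6-array means, by array, Chd7f/f left of the dashed line and control right of it; diamonds are all tested genes. On Chd7f/f replicate 1 every role group is below 0, from -0.58 to -0.13.

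The proteasome genes varied together over the arrays. The median Pearson correlation of their 903 pairs was 0.67 over 6 arrays, against 0.00912 for pairs of all tested genes, and 0.70 once each genotype's mean was removed. These are descriptions, since all pairs share the same 6 arrays and their normalization. The median was 0.82 within the lid, 0.82 within core assembly, 0.76 within the beta ring, 0.71 within the base and 0.66 within the alpha ring, but 0.094 among activators and inhibitor. Psmc5, Psmd3, Psmc2 and Psmd1 followed the mean of the other proteasome genes most closely, with correlations of 0.97 to 0.98. At the other end stood Psmd9 (0.037), Psme2 (-0.25), Psma8 (-0.27), Psmb11 (-0.30) and Psmf1 (-0.48). The correlation was lower without 1 array: without Chd7f/f replicate 1 the median correlation of the 43 genes was 0.16 over 5 arrays, with 0.0025 for all tested genes. It was then 0.17 within the lid, 0.25 within core assembly, 0.31 within the beta ring, 0.32 within the base and 0.069 within the alpha ring. Some lists described below varied together more closely, with medians of 0.91 for chaperones, 0.98 for replication and 0.99 for mitosis genes over 6 arrays. Without Chd7f/f replicate 1 these were 0.57, 0.88 and 0.87. The remaining lists had medians of -0.058 to 0.43 over 6 arrays.

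Leaving out that array turned the direction of the comparison. It was singled out from these same values, as most proteasome genes were lowest on it. Leaving it out had to raise their Chd7f/f means, whereas the array was not singled out by the values of all tested genes. Without Chd7f/f replicate 1, 30 of the 43 genes were higher in Chd7f/f leukemias and 13 lower, where 49.7% of all tested genes were higher, and the median difference was 0.079. Of the genes given above array by array, the difference became 0.35 for Psmg1, 0.26 for Psmd6, 0.22 for Psmb5, 0.22 for Psmc5, 0.079 for Psmb7, 0.073 for Psma7, 0.016 for Psmd7, 0.0080 for Psma1 and 0.0042 for Psmg3. Others kept a lower mean: -0.29 for Psmb11, -0.23 for Psmd5, -0.23 for Psme4, -0.19 for Psmc6, -0.19 for Psmc3, -0.095 for Psmd12, -0.089 for Psmb3 and -0.084 for Psme1. None passed the adjusted threshold (limma), and 1, Psmb11, had an unadjusted p of 0.0496, with 2.18% of all tested genes under 0.05. Groups then did not overlap for 11 genes higher in Chd7f/f leukemias and 4 lower, where 16.9% of all tested genes had groups apart and 7.88% were higher. With Chd7f/f replicate 2 left out the median difference was -0.23, with replicate 3 of that genotype left out -0.23, and -0.15, -0.16 and -0.10 without control replicates 1, 2 and 3.

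**Figure D4:**
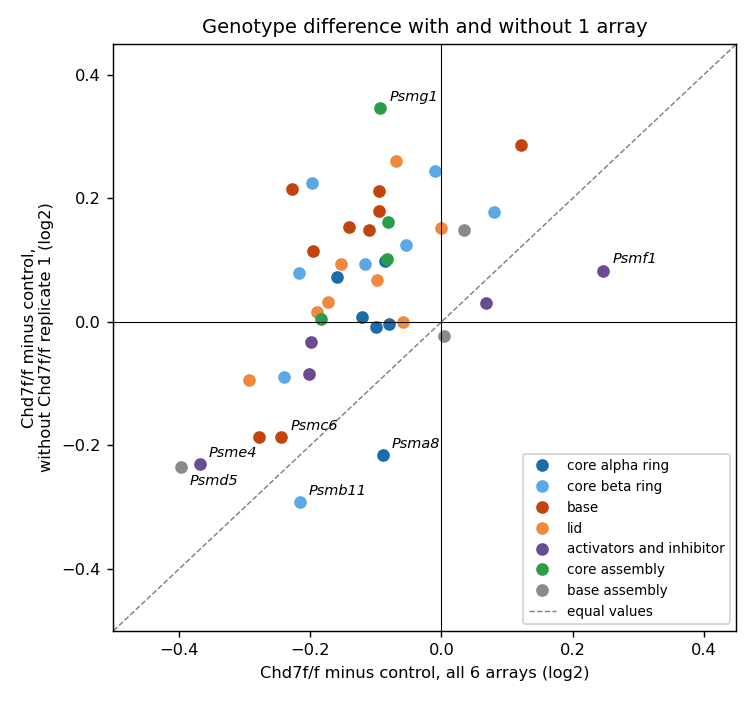
Genotype difference of each proteasome gene over all 6 arrays (horizontal) and without Chd7f/f replicate 1 (vertical), both Chd7f/f minus control in log2 units; points on the dashed line have equal values. Most points lie in the upper left, lower over all arrays and higher without the array, while Psmf1, Psma8, Psmb11, Psme2 and Psmd9 lie below the line.

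Genes that work with the proteasome were set beside it. Among 15 measured partners of 18 listed (ubiquitin receptors, deubiquitinases, shuttles and further assembly factors), 4 were higher and 11 lower with a median difference of -0.036, and 0 passed the test (limma; 0 at an unadjusted p under 0.05). Usp14, a deubiquitinase bound to the base, had the lowest p of them and read 8.86, 9.41 and 9.20 in Chd7f/f leukemias, against 9.62, 9.01 and 9.51 in control leukemias, with overlapping groups. Pomp, which completes the beta ring, is named after its values were seen; at 8.63, 9.76 and 9.61 in Chd7f/f leukemias, against 9.18, 9.54 and 9.44 in control leukemias, it was again lowest in Chd7f/f replicate 1. The gene of the transcription factor NFE2L1, also named after its values were seen, was at 8.61, 8.52 and 8.38 in Chd7f/f leukemias, against 8.62, 8.36 and 8.66 in control leukemias, within 0.30 over all arrays. Its relative Nfe2l2 was at 9.57, 10.07 and 9.76 in Chd7f/f leukemias, against 9.49, 9.95 and 9.82 in control leukemias, without an order by genotype. Over the 9 measured of 10 listed genes tied to proteasome transcription, 6 were higher and 3 lower, and 0 passed (limma; 0 at an unadjusted p under 0.05).

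Other lists were also lowest on that array. Of the 16 measured chaperone and chaperonin genes, of 18 listed, 14 had a lower mean in Chd7f/f leukemias and 0 passed the test (limma; 0 at an unadjusted p under 0.05), with mean deviations of -0.57, 0.25 and 0.089 in Chd7f/f leukemias and 0.069, 0.0093 and 0.15 in controls. All 16 replication genes and all 15 measured mitosis genes had a lower mean, and again 0 passed at either threshold. The replication genes stood at -1.53, 0.43 and 0.27 in Chd7f/f leukemias and 0.60, -0.12 and 0.35 in controls, and the mitosis genes at -1.79, 0.60 and 0.43 in Chd7f/f leukemias and 0.34, -0.070 and 0.49 in controls. Hspd1, the mitochondrial chaperonin gene, was at 7.91, 9.23 and 8.93 in Chd7f/f leukemias, against 9.24, 8.99 and 8.99 in control leukemias, and the replicative helicase gene Mcm4 at 8.56, 10.31 and 10.19 in Chd7f/f leukemias, against 10.77, 9.89 and 10.23 in control leukemias; Ccnb2, a mitotic cyclin, read 8.63, 10.34 and 10.29 in Chd7f/f leukemias, against 10.26, 9.97 and 10.49 in control leukemias. All 3 were lowest in Chd7f/f replicate 1. The 4 measured erythroid markers of 9, none below the testing level, were at -1.39, -0.15 and 0.68 in Chd7f/f leukemias and 1.60, -0.72 and -0.023 in controls, and the 6 stem and progenitor markers at 0.70, -0.36 and 0.070 in Chd7f/f leukemias and -0.38, 0.015 and -0.040 in controls. On the same arrays the proteasome genes were at -0.40, 0.13 and 0.098 in Chd7f/f leukemias and -0.010, 0.056 and 0.13 in controls. All 6 progenitor markers were above their own mean on Chd7f/f replicate 1. Cd34 stood out there at 9.47, with 5.61 to 7.64 on the other arrays. Of the erythroid markers, Slc4a1 and Tfrc read 5.92 and 6.36 on Chd7f/f replicate 1, against 11.47 and 11.06 on control replicate 1. The part of cell division or of erythroid, macrophage, neutrophil or progenitor content in the proteasome values was not tested.

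**Figure D5:**
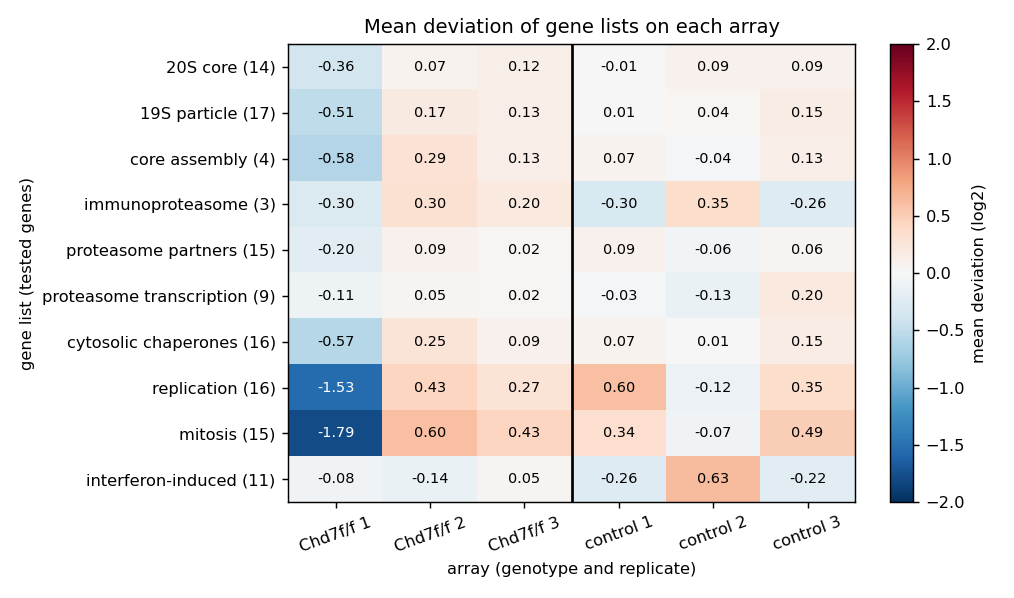
Mean deviation (log2) of gene lists from their genes' own 6-array means, by array, with the number of tested genes in brackets; Chd7f/f is left of the line and control right of it, and 20S core and 19S particle are the core rings and the base with the lid. Replication and mitosis are lowest on Chd7f/f replicate 1, as are the core, the base with the lid, core assembly and the chaperones, while interferon-induced genes are highest on control replicate 2.

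The promoters of proteasome genes were searched for shared short motifs, some of which are printed above. RefSeq gave 300 bases for 36 of the 44 genes, 250 before and 50 after the start. The ETS core CCGGAA, on either strand, was in 20 of these genes, or 55.6%, against 16.7% of all genes with a promoter and 26.5% of tested ones. The SP box GGGCGG was in 58.3% against 38.2% of all and 61.3% of tested genes. CCAAT, bound by NF-Y, was in 36.1% against 41.1% and 41.5%, and GCATGC, the centre of the site of nuclear respiratory factor 1, in 13.9% against 8.93% and 10.5%. TGACNNNGC, the core of the antioxidant response element that NFE2L1 and NFE2L2 bind, was in 6 genes (Psmb5, Psmb6, Psmc6, Psmd9, Psmd12 and Psme4), 16.7% against 14% and 16.4%. Motifs may overlap one another, and a match is only a run of letters. A motif was also found among genes outside the shared pattern, such as CCGGAA before Psmf1 and TGACNNNGC before Psmd9. The 3 genes with CCGGAA shown above were those holding it that followed the other proteasome genes most closely. Genes holding TGACNNNGC varied in that likeness: their correlations with the mean of the others over the 6 arrays were 0.97 for Psmb5, 0.94 for Psmb6, 0.91 for Psmd12, 0.66 for Psme4, 0.56 for Psmc6 and 0.037 for Psmd9. Of these, Psmb5 and Psmb6 are printed because they followed the other proteasome genes most closely.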

How the data were processed

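RNA of c-Kit+ leukemic spleen cells was measured on 6 Affymetrix arrays, 3 per genotype. The authors deposited log2 levels, 1 per probe set and array, made with Affymetrix Expression Console and RMA per the submitters' processing notes; no version or setting is stated in the sources used here. One protocol label names a human array of the same family, whereas the design and the probe annotation are of the mouse array. RMA makes the arrays' distributions alike, so differences in total RNA are not visible. The 41345 probe sets had 0 missing values, from 1.78 to 13.46. Gene names came from GEO's platform annotation, updated through RefSeq (21994 of 22180 matched), and the probe set with the highest mean was used. Genes whose mean reached the 30th percentile (4.13) were tested with limma 3.58.1 in R 4.3.3 (lmFit, eBayes, no covariate) and Benjamini-Hochberg adjustment over 15526 genes. The fit was also run on simulated data with 3 against 3 arrays. There it recovered 32.9% of changes of 1 log2 unit, 81.8% of changes of 2 and 92.0% of changes of 3. Most simulated 2-fold changes were thus missed. The labels give no batch. Array number limits precision.

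The members, gene lists and tests were chosen with earlier results of these data known. Values on every array are given for members without overlap between genotypes, with an unadjusted p under 0.05 or below the filter. In each role group they are also given for the 2 largest differences and the largest spread. The partner, chaperone, replication and mitosis lists are each represented by their gene of lowest p. Pomp, Nfe2l1, Nfe2l2 and the induced catalytic subunits were named apart from that rule. For the proteasome transcription, ubiquitin and VCP, and interferon-induced lists the gene of lowest p is not given. Alternatives covered normalization, filter, probe sets, prior, array weights, a block for the replicate number, and leaving out each array in turn. Promoters were searched in Python 3.11.15 with pandas 2.3.3. Promoters came from RefSeq GRCm38.p6, and 1677 of 1677 overlapping promoter pairs on opposite strands had matching bases, which checks the strand.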

Additional observations from a re-analysis of the deposited data

How the results depend on the processing

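No gene, member or other, passed an adjusted p of 0.05 under any alternative run. The count of tested genes at an unadjusted p under 0.05 was 286, and 530 with no filter, 159 with a filter at the 50th percentile and 571 with array weights; leaving out each array gave 270 (control replicate 1) to 477 (control replicate 2). Of members, 0 passed that threshold over all arrays, 1 (Psmb11) with array weights, and 0 to 2 without each array in turn: Psmb11 with Chd7f/f replicate 1 left out, Psme4 with replicate 2 left out, and Psmc3 and Psmc6 with replicate 3 left out. Groups did not overlap for 4 members, for 4 to 15 without each array (15 without Chd7f/f replicate 1, 7 with replicate 2 or 3 of that genotype left out, where fewer arrays make a gap more frequent) and for 19 without both arrays numbered 1, a setting added after the data were seen. Without Chd7f/f replicate 1, an array singled out by the members' own values, that was 34.9% of members and 16.9% of all tested genes. Without Chd7f/f replicate 2 it was 16.3% of members and 14.7% of all tested genes. With replicate 3 of that genotype left out it was 16.3% of members and 15.7% of all tested genes. Without control replicates 1, 2 and 3 in turn 9.3% to 11.6% of members had groups apart, and 13.8% to 18.4% of all tested genes. Without both arrays numbered 1 it was 44.2% of members and 28.5% of all tested genes. The median difference of members, -0.11, ran from -0.23 to 0.079 when each array was left out; it was -0.030 with array weights and -0.059 with median centring. By role it ran -0.18 to 0.0027 for core alpha ring, -0.22 to 0.11 for core beta ring, -0.26 to 0.15 for base, -0.27 to 0.050 for lid, -0.26 to -0.032 for activators and inhibitor, -0.28 to 0.13 for core assembly, -0.13 to 0.15 for base assembly. Without both arrays numbered 1 it was 0.050 for the alpha ring and -0.048 for activators and inhibitor, with 17 members lower in place of 37 (13 without Chd7f/f replicate 1, 26 with array weights). Array weights also turned the medians of core assembly (0.0055) and base assembly (-0.10).

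Directions turned as follows, and the cause was not tested. With array weights the difference was 0.10 for Psmb5, 0.020 for Psmc5, 0.060 for Psmd6, 0.098 for Psmg1, 0.098 for Psmb10, 0.12 for Pomp. With median centring the difference was 0.0061 for Nfe2l1. Without both arrays numbered 1 the difference was 0.080 for Psma7, 0.020 for Psma1, 0.047 for Psmb7, 0.18 for Psmb5, 0.16 for Psmc5, 0.076 for Psmd7, 0.17 for Psmd6, -0.16 for Psmf1, 0.29 for Psmg1, 0.044 for Usp14, 0.086 for Hspd1, 0.19 for Mcm4, 0.086 for Ccnb2, 0.20 for Pomp. Leaving out each array also gave ranges that crossed 0: Ccnb2 -0.78 to 0.075, Hspd1 -0.65 to 0.0047, Nfe2l1 -0.14 to 0.013, Nfe2l2 -0.087 to 0.16, Pomp -0.27 to 0.30, Psma1 -0.24 to 0.0080, Psma7 -0.31 to 0.073, Psma8 -0.34 to 0.27, Psmb10 -0.35 to 0.20, Psmb5 -0.43 to 0.22, Psmb7 -0.41 to 0.079, Psmb8 -0.17 to 0.36, Psmc5 -0.49 to 0.22, Psmd10 -0.10 to 0.15, Psmd6 -0.27 to 0.26, Psmd7 -0.32 to 0.016, Psmg1 -0.35 to 0.35, Psmg3 -0.33 to 0.0042. Another quantile normalization, no filter, the 50th percentile filter, the mean of probe sets, a trended robust prior and the block turned no named gene. Same-numbered arrays did not deviate together (correlations across genes of 0.027, -0.025 and 0.034 for numbers 1, 2 and 3). These values gave no sign of pairing by number, but with 3 arrays per genotype they cannot exclude it. With the replicate number as a block 332 tested genes and 0 members had an unadjusted limma p under 0.05. The median difference of members was then -0.11. The 3 arrays per genotype limit what could be detected, and Psma8, Psmb11 and Psma5 lie near or below the level required for testing.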

Other observations

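The induced catalytic subunits, which replace Psmb5, Psmb6 and Psmb7 in the immunoproteasome, followed the pattern of the core only in part. All 3 were below their own mean on Chd7f/f replicate 1 and above it on Chd7f/f replicates 2 and 3, as most core genes were. On control replicates 1 and 3, where most core genes were above their own mean, only 1 of the 3 was. Psmb8 was at 8.68, 8.92 and 8.72 in Chd7f/f leukemias, against 8.90, 8.99 and 7.93 in control leukemias, and Psmb9 at 7.36, 8.02 and 7.72 in Chd7f/f leukemias, against 6.73, 7.82 and 7.41 in control leukemias. Psmb10 read 8.53, 9.42 and 9.62 in Chd7f/f leukemias, against 8.92, 9.71 and 9.33 in control leukemias. The lowest value was in control replicate 3 for Psmb8, in control replicate 1 for Psmb9 and in Chd7f/f replicate 1 for Psmb10, and the groups of each overlapped. Their differences were 0.17 (SE 0.30), 0.38 (SE 0.31) and -0.13 (SE 0.34), and limma gave each of them an adjusted p of 0.9998. Interferon-induced genes, 11 tested of 15 listed, had mean deviations of -0.078, -0.14 and 0.054 in Chd7f/f leukemias and -0.26, 0.63 and -0.22 in controls, highest in control replicate 2. The immunoproteasome genes were at -0.30, 0.30 and 0.20 in Chd7f/f leukemias and -0.30, 0.35 and -0.26 in controls, high in Chd7f/f replicates 2 and 3 and control replicate 2.

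Ubiquitin and VCP genes, 7 measured of 12 listed, had 3 members higher and 4 lower with a median difference of -0.0051. Their mean deviation was lowest in Chd7f/f replicate 1, at -0.16, and highest in Chd7f/f replicate 2, at 0.14.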
